A study of Arabidopsis thaliana with 14 samples.

Results

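Photosynthesis in a leaf cell rests on proteins made from genes of the nucleus as well as of the chloroplast, and 6 nuclear genes that sample its steps are described here. PSBY (AT1G67740) encodes small subunits of photosystem II, PSAN (AT5G64040) a subunit of photosystem I, LHCB4.1 (AT5G01530) an antenna protein, SBPASE (AT3G55800) an enzyme of the Calvin cycle, and CHLM (AT4G25080) and PORB (AT4G27440) enzymes of chlorophyll synthesis. They were listed by gene name, by their place in these steps, with earlier results of these data already known. All 6 were found on the array, each with 1 probe set naming that gene alone, among 22810 probe sets. All 6 were also among the 15646 probe sets tested, and each lay at or above the 59th percentile of every array, so the filter on dim probe sets, set at the 40th percentile, did not act on any of them through a single group.

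The study measured leaf RNA of Arabidopsis thaliana plants 1 month old on 14 Affymetrix ATH1 arrays, with 1 array for each sample. All plants had the Col-0 background. There were 3 arrays of wild-type Col-0 with water, 3 of Col-0 after 14 days of drought, 3 of the mutant line camta5-a with water and 3 of it after drought, and 2 of the CAMTA5 overexpression line OX-5, written OX5 here, after drought. The 14 arrays held no watered OX5 group. The OX5 arrays could thus be compared with other droughted plants and not with their own watered state. CAMTA5 is a transcription factor of the calmodulin-binding family, and the series title concerns its overexpression and drought tolerance. The promoter of the overexpression construct, the number of independent lines and the position of the camta5-a mutation are not given in the sources used here. The labels call the replicates biological without naming plants or pots, and each p-value therefore rests on the scatter of these arrays alone, part of which may be technical.

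In the thylakoid membrane, antenna proteins that bind chlorophyll pass the energy of light to photosystem II, which takes electrons from water, and a chain of carriers hands these electrons to photosystem I. The ATP and NADPH that result drive the Calvin cycle, which fixes CO2 into sugar. Chlorophyll itself is made in the plastid from glutamate through a branch of the haem pathway, and leaves under long water shortage are known to lose transcripts of many of these nuclear genes.

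The values were MAS5 signals on a linear scale with the same trimmed mean on every array. Arrays of the same group of 3 correlated with a Spearman coefficient of 0.942 to 0.956 over all probe sets, and both OX5 arrays stood apart, at 0.805 to 0.865 with the other 12 arrays and 0.903 with each other. The CAMTA5 signal was 115 to 191 on the watered arrays, 146 to 232 in droughted Col-0, 265 to 306 in droughted camta5 and 290 to 402 in OX5. It was thus not lower on the arrays labelled camta5, and its range in OX5 overlapped that in droughted camta5. Both labels are used below only as names of the groups. One label conflicted: replicate 1 of watered camta5 has wild type as its genotype, and it was grouped by its title. Of 28 cell type markers only 3 had a probe set of their own in the annotation used here. The leaf mesophyll gene RCA (Rubisco activase) was at 28324 to 41941 on all arrays, the guard cell gene FMA at 110 to 376, and the root hair gene EXPA7 at 1.83 to 43.8, near the floor of the scale, so the leaf label could be checked only in this narrow way.

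PSBY encodes a precursor from which a pair of small membrane subunits of photosystem II is made. Its signal was 20678, 24511 and 19184 on the 3 arrays of watered Col-0 and 11258, 5597 and 9153 after drought. In camta5 it was 21834, 19800 and 22173 with water and 14834, 8457 and 10007 after drought, and in droughted OX5 it was 18743 and 17909. Every watered array thus lay above every droughted one, and the OX5 arrays lay between both, closer to the watered plants. In Col-0 PSBY fell by 1.36 ± 0.23 (log2, SE), to 39.0% of the watered level (limma, adjusted p = 0.00103, n = 3 and 3). In camta5 it fell by 0.98 ± 0.23, with a limma adjusted p of 0.013, although without camta5 drought replicate 2, the lowest of that group, the adjusted p was 0.0674. The OX5 signal was 2.2-fold higher than in droughted Col-0 (limma, log2 difference 1.14 ± 0.26, adjusted p = 0.00252). Against droughted camta5 it was higher by 0.76 ± 0.26 (limma adjusted p = 0.0293). That last call was lost in 8 of 27 other settings, among them quantile normalization (0.54, adjusted p = 0.108), centring on the median (0.62, adjusted p = 0.0602), and the fits without either OX5 array (adjusted p = 0.123 and 0.0866) or without 1 of the droughted camta5 arrays, replicate 2 (0.107) or 3 (0.071).

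**Figure D1:**
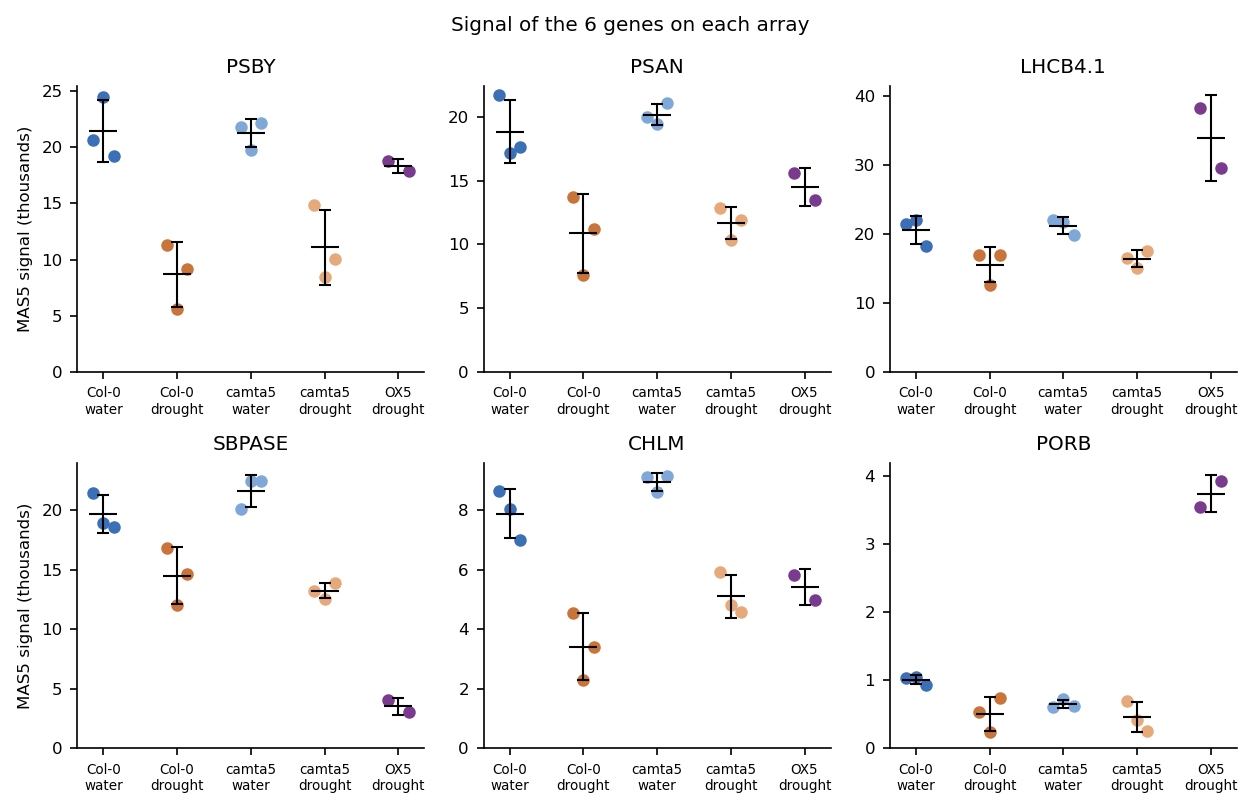
MAS5 signal (vertical axis, linear scale) of each gene on each of the 14 arrays, in 1 panel per gene. Points are single arrays, bars are group means and error bars are the SD. The watered Col-0 arrays lie above the droughted Col-0 arrays in all 6 panels, while OX5 is the highest group for LHCB4.1 and PORB and the lowest for SBPASE.

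PSAN encodes a subunit on the lumen side of photosystem I, where plastocyanin delivers electrons. The signal was 21707, 17179 and 17626 in watered Col-0 and 13737, 7619 and 11188 after drought. For camta5 the values were 19984, 19435 and 21051 with water and 12829, 10322 and 11878 after drought, and the OX5 arrays gave 15555 and 13468. The order of the groups was that of PSBY: watered arrays above OX5, and OX5 above the group means of the droughted arrays. The fall was 0.83 ± 0.19 (log2, limma adjusted p = 0.00488) in Col-0 and 0.79 ± 0.19 (limma adjusted p = 0.0119) in camta5. The camta5 call was lost with quantile normalization (-0.53, adjusted p = 0.0715) and without camta5 drought replicate 2 (-0.71, adjusted p = 0.0571). The OX5 difference was 0.46 ± 0.21 against Col-0, with 1 Col-0 array inside the OX5 range and a limma adjusted p of 0.0847, and 0.32 ± 0.21 against camta5, with a limma adjusted p of 0.238. Neither passed the threshold, although without Col-0 drought replicate 1 the first was 0.65 with an adjusted p of 0.0157.

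LHCB4.1 encodes an isoform of CP29, a minor antenna protein that sits between photosystem II and its outer antenna. Its signal was 21452, 22081 and 18317 in watered Col-0 and 17004, 12589 and 16983 after drought. In camta5 it was 22083, 21705 and 19832 with water and 16555, 15135 and 17569 after drought, whereas the OX5 arrays reached 38281 and 29516. Droughted and watered arrays did not overlap, but the distance was small, and both OX5 arrays lay above all 12 others. Drought minus water was -0.42 ± 0.15 (log2, limma adjusted p = 0.0553) in Col-0 and -0.37 ± 0.15 (limma adjusted p = 0.113) in camta5, so neither difference was called. The Col-0 value passed the threshold in 10 of 28 other settings, with an adjusted p between 0.0258 and 0.605 over the 28. With quantile normalization the differences were -0.11 in Col-0 and -0.10 in camta5. The OX5 signal was 2.18-fold that of droughted Col-0 (limma, log2 difference 1.13 ± 0.17, adjusted p = 9.48e-05) and 2.05-fold that of droughted camta5 (limma, 1.04 ± 0.17, adjusted p = 0.000241). With quantile normalization these differences were 0.56 (adjusted p = 0.00669) and 0.54 (adjusted p = 0.0102), and both were still called.

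SBPASE encodes sedoheptulose-bisphosphatase, which helps to regenerate the CO2 acceptor of the Calvin cycle. The signal was 21465, 18902 and 18595 in watered Col-0 and 16830, 12024 and 14605 after drought. The camta5 arrays gave 20081, 22425 and 22398 with water and 13220, 12573 and 13855 after drought. Both OX5 arrays were far lower, at 4025 and 3029, and did not come near any of the other 12. SBPASE in OX5 was at 24.4% of its level in droughted Col-0, a log2 difference of -2.03 ± 0.17 (limma adjusted p = 3.22e-07), and at 26.5% of that in droughted camta5, a difference of -1.91 ± 0.17 (limma adjusted p = 7.67e-07). It was called in OX5 in all 27 other settings of each comparison. The drought differences were smaller. SBPASE fell by 0.45 ± 0.15 in Col-0 (limma adjusted p = 0.037) and by 0.71 ± 0.15 in camta5 (limma adjusted p = 0.00728). The Col-0 call was lost in 10 of 28 other settings, with a value of -0.13 and an adjusted p of 0.568 under quantile normalization, and an adjusted p of 0.155 and 0.0778 without Col-0 drought replicate 2 and 3 and 0.117, 0.0718 and 0.0568 without water replicate 1, 2 and 3. The camta5 call was lost with quantile normalization alone (-0.42, adjusted p = 0.07).

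CHLM encodes magnesium-protoporphyrin methyltransferase, an enzyme of the magnesium branch that leads to chlorophyll. Its signal was 8624, 8019 and 6990 in watered Col-0 and 4533, 2282 and 3413 after drought. In camta5 it was 9099, 8590 and 9132 with water and 5932, 4795 and 4578 after drought, and in OX5 it was 5832 and 4992. The OX5 arrays lay within the range of droughted camta5, and all 3 droughted Col-0 arrays lay below both of these groups. CHLM fell by 1.25 ± 0.20 in Col-0 (log2, limma adjusted p = 0.000654), to 41.9% of the watered level, and by 0.82 ± 0.20 in camta5 (limma adjusted p = 0.0152). The camta5 call was lost, at an adjusted p of 0.051 to 0.059, without water replicate 1 or 3 or without drought replicate 2 or 3. In OX5 the signal was 0.71 ± 0.23 above droughted Col-0 (limma adjusted p = 0.0175) and 0.09 ± 0.23 above droughted camta5 (limma adjusted p = 0.778, 95% interval -0.39 to 0.57). The first of these was lost in the fit that left out Col-0 drought replicate 2 (0.45, adjusted p = 0.0596) or OX5 replicate 1 (0.60, adjusted p = 0.125) and when only the compared arrays were fitted (adjusted p = 0.0827). The second turned to -0.055 when arrays were centred on the median.

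PORB encodes a protochlorophyllide oxidoreductase, the enzyme that uses light to reduce protochlorophyllide in the last part of the pathway. The signal was 1036, 1047 and 927 in watered Col-0 and 532, 243 and 739 after drought. The signal in camta5 was 606, 720 and 620 with water and 688, 422 and 259 after drought, so that these groups overlapped. The OX5 arrays gave 3546 and 3928, above all other arrays. PORB had the widest range of the 6 genes, with the highest array at 16.1 times the lowest. In Col-0 it fell by 1.10 ± 0.34 (log2, limma adjusted p = 0.027). When Col-0 drought replicate 2, the lowest array, was left out, the fall was 0.66 with an adjusted p of 0.138. Without water replicate 1, 2 or 3 the adjusted p was 0.0699, 0.0784 and 0.0524. The call was also lost when the array with the conflicting label was counted as watered Col-0 (-0.92, adjusted p = 0.0575). In camta5 the difference was -0.59 ± 0.34, with a limma adjusted p of 0.254. The OX5 level was 7.88-fold that of droughted Col-0 (limma, log2 difference 2.98 ± 0.38, adjusted p = 2.09e-05) and 8.53-fold that of droughted camta5 (limma, 3.09 ± 0.38, adjusted p = 1.94e-05), and both differences were called in all 27 other settings.

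**Figure D2:**
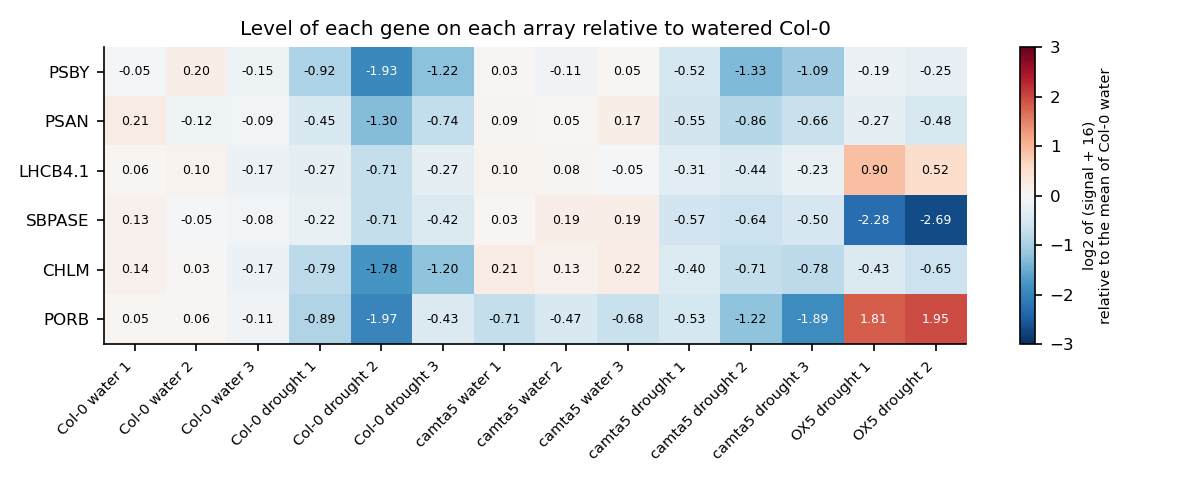
Log2 level of each gene (rows) on each array (columns), relative to that gene's mean in watered Col-0, with the value printed in each cell and blue for lower, red for higher. Col-0 drought replicate 2 is the lowest array for 5 of the 6 genes, and in the OX5 columns PORB (1.81 and 1.95) and SBPASE (-2.28 and -2.69) depart in opposite directions.

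Drought lowered most of the 6 genes in wild-type leaves, with the largest falls in PSBY, CHLM and PORB. In Col-0, 5 of 6 were called lower and none higher, where 27.3% of all tested probe sets were called and 11.7% were called lower. The 6 genes, and the gene lists below, were chosen with earlier results of these data known. The shares thus describe these genes and do not test photosynthesis genes as a class. All 6 had droughted arrays wholly below the watered ones, as had 19% of all tested probe sets. The median log2 difference of the 6 genes was -0.96, against 0.08 over all probe sets tested. Quantile normalization moved this comparison by a median of 0.16 among the brightest 5% of probe sets and -0.055 over all. With it the Col-0 values were -1.17 for PSBY, -0.58 for PSAN, -0.11 for LHCB4.1, -0.13 for SBPASE, -1.13 for CHLM and -1.17 for PORB. In camta5, 4 of 6 were called lower (PSBY, PSAN, SBPASE and CHLM), where 16.3% of all probe sets were called and 7.61% were called lower. The arrays were wholly lower for 5 of 6, all but PORB, against 16.7% of all probe sets, and the median was -0.75, against 0.04. In leaf RNA taken as a whole, fewer cells of a type and less RNA per cell cannot be told apart. Leaving out both OX5 arrays, which share the estimate of the spread, ended none of these calls.

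Replicate 2 of droughted Col-0 was the lowest of the 14 arrays for PSBY, PSAN, LHCB4.1, CHLM and PORB, and the lowest of the droughted Col-0 arrays for SBPASE. Without that array 3 of the 6 genes, PSBY, PSAN and CHLM, were called in Col-0, and the count was also 3 without Col-0 water replicate 1 or 2. In camta5 the count was 1, SBPASE, without camta5 drought replicate 2. That array was the lowest of droughted camta5 for PSBY, PSAN, LHCB4.1 and SBPASE, and replicate 3 was the lowest for CHLM and PORB. Other genes were read from 6 lists of nuclear photosynthesis and chlorophyll genes with 108 entries. The annotation used here gave 22 of these a probe set of their own, the 6 genes included. Of the other 16 genes, 5 were called lower after drought in Col-0 and none higher, where 11.7% of all probe sets were called lower. Their median was -0.46. Without Col-0 drought replicate 2 this count was 1, and without replicate 1 it was 10. Without Col-0 water replicate 1 or 2 it was 3 and 2, and without camta5 drought replicate 1, which enters through the shared spread, it was 8.

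The photosystem II assembly and repair factor PSB27 fell by 0.67 ± 0.16 in Col-0 and was called in all 28 other settings. In the Calvin cycle list, AT1G56190 fell by 0.74 ± 0.24 and PRK (phosphoribulokinase, which makes the CO2 acceptor) by 0.48 ± 0.17, and they were called in 20 and 15 of the 28. In the chlorophyll list the largest falls were those of CHLM and PORB. HEME2 (uroporphyrinogen decarboxylase) and CHLI2 (a subunit of magnesium chelatase) also fell there, by 0.67 ± 0.17 and 0.86 ± 0.25, and are named after their values were seen. In camta5, 4 of the 16 were called lower and none higher, with a median of -0.44, where 7.61% of all probe sets were called lower. ATPC1 (the gamma subunit of the chloroplast ATP synthase) fell by 0.48 ± 0.14, PRK by 0.59 ± 0.17 and CHLI2 by 0.98 ± 0.25. HEME2, named after its values were seen, fell by 0.56 ± 0.17. These 4 calls were each lost in 6 to 10 of 28 other settings. Without camta5 water replicate 1 or drought replicate 2 all 4 were lost, without water replicate 2 or 3 or drought replicate 3 the count was 1, and without Col-0 drought replicate 2 it was 8. With the array of the conflicting label counted as watered Col-0, all 4 calls were lost (adjusted p of 0.0711 for ATPC1, 0.0854 for PRK, 0.0951 for HEME2 and 0.0661 for CHLI2). HEMA2 and GSA1 of the chlorophyll list encode enzymes that act on glutamyl-tRNA and glutamate semialdehyde. They had values above 0 in both lines, at 0.16 and 0.25 in Col-0 and 0.74 and 0.31 in camta5, and were not called.

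**Figure D3:**
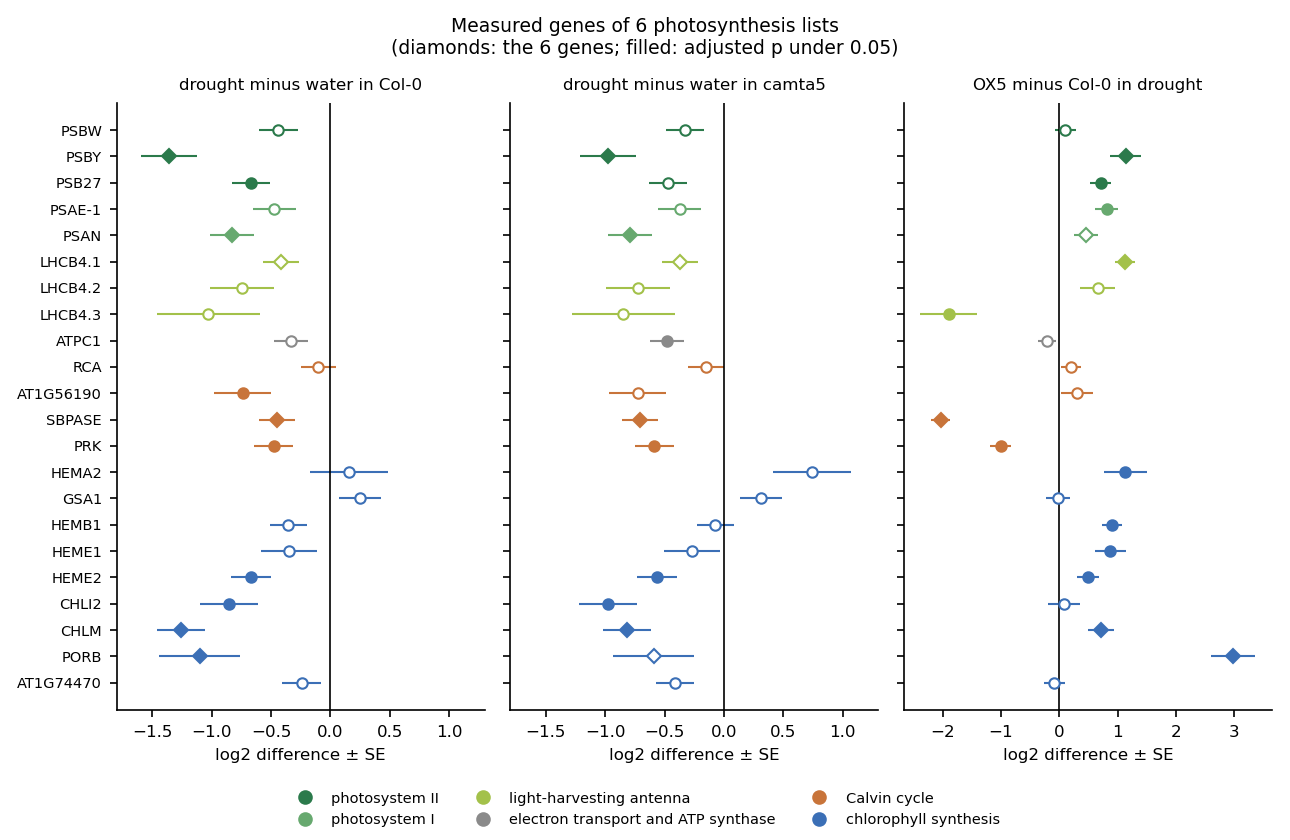
Log2 difference ± SE (horizontal axes, whose scale differs in the OX5 panel) of the 22 measured genes of 6 photosynthesis and chlorophyll lists, for drought in Col-0, drought in camta5 and OX5 against droughted Col-0, with diamonds for the 6 genes and filled symbols for calls. No filled symbol lies above 0 in the drought panels, and in the OX5 panel filled symbols lie on both sides, with SBPASE, LHCB4.3 and PRK below 0.

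All 13 photosynthesis genes of the chloroplast genome on a list of their own had a probe set. In drought in Col-0, 9 of 13 were called lower and none higher, with a median of -1.03, where 11.7% of all probe sets were called lower. The largest falls had log2 differences of -3.36 ± 0.54 for psbB (a core antenna protein of photosystem II) and -2.79 ± 0.34 for petN (a subunit of the cytochrome bf complex). In camta5, 5 of 13 were called lower, where 7.61% of all probe sets were called lower. Here psbB was at -2.46 ± 0.54 (-3.34 without camta5 drought replicate 1) and petN at -2.41 ± 0.34. Plastid transcripts largely lack long poly(A) tails, and how this kind of labelling reads them was not tested. The senescence gene SAG29 (a sugar transporter of the SWEET family) went the other way, from 144 to 309 in watered Col-0 to 4228 to 10007 after drought, and rose by 4.90 ± 0.37 (limma adjusted p = 5.68e-06). In camta5 it rose by 4.33 ± 0.37 (limma adjusted p = 2.39e-05). SAG29 was the single gene called among 3 measured senescence genes in either line. The others, WRKY6 and WRKY53, had negative values, at -0.98 and -0.46 in Col-0 and -0.25 and -0.34 in camta5. The part of SAG29 in the falls of the photosynthesis genes was not tested. The 1 measured gene of chlorophyll breakdown, NOL (a chlorophyll b reductase), was at 938 to 1117 in watered and 1028 to 1207 in droughted Col-0, which overlap.

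Between the arrays labelled camta5 and Col-0, none of the 6 genes differed beyond the threshold in limma, either with water or in drought. With water no probe set of any gene was called (0% of those tested, and 1000 at an unadjusted p under 0.05, none of them among the 6). In drought 1.46% of all probe sets were called. The arrays were wholly apart for 1 of the 6 with water, against 15.3% of all probe sets, and for 1 of the 6 in drought, against 18%. With water that gene was PORB, at 606 to 720 in camta5 and 927 to 1047 in Col-0. Its log2 difference was -0.62 ± 0.34, with a 95% interval of -1.35 to 0.11 and a limma adjusted p of 0.836. The other 5 differed by -0.01 to 0.19 with water. In drought the gene was CHLM, higher in camta5 by 0.62 ± 0.20 (95% interval 0.19 to 1.06), with a limma adjusted p of 0.151. At an unadjusted limma p of 0.00751, it was the single one of the 6 with an unadjusted p under 0.05. Without Col-0 drought replicate 1 it was called, at 0.86 and an adjusted p of 0.0184.

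The drought responses of both lines were compared by the difference of their log2 changes, camta5 minus Col-0. It was 0.38 ± 0.33 for PSBY (95% interval -0.33 to 1.09), 0.44 ± 0.29 for CHLM (-0.17 to 1.05) and 0.51 ± 0.48 for PORB (-0.53 to 1.54), so a smaller fall in camta5 by these amounts lay within the error. For SBPASE it was -0.26 ± 0.21 (-0.71 to 0.19), and for PSAN and LHCB4.1 it was 0.04 and 0.05. No member of the 6 was called by limma (adjusted p of 0.912 to 0.992, none at an unadjusted p under 0.05), and neither was any other probe set (0% of those tested, with 885 at an unadjusted p under 0.05). That PORB was called in Col-0 and not in camta5 thus does not show that it responded differently there.

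In OX5 after drought the 6 genes did not move together. Against droughted Col-0, PSBY, LHCB4.1, CHLM and PORB were called higher and SBPASE lower, while PSAN, at 0.46, was not called. Of all tested probe sets 46.7% were called in this comparison, 21.7% higher and 25% lower, so 5 calls among 6 genes must be read against a high background. The arrays were wholly higher for 4 of the 6, against 30.6% of all probe sets, and wholly lower for SBPASE, against 31.9%. Against droughted camta5, PSBY, LHCB4.1 and PORB were called higher and SBPASE lower, where 42.6% of all probe sets were called, 20.2% higher and 22.5% lower. Here 4 of the 6 were wholly higher, PSAN included, against 29.9% of all probe sets, and SBPASE was wholly lower, against 29.8%. Of all calls in this comparison 47.3% were higher as deposited and 37.2% after centring on the median, which moved the median difference by -0.14. The median of the 6 genes was 0.92 against Col-0 and 0.54 against camta5, where that of all probe sets was -0.04 and -0.02. The drought comparison in Col-0 and the OX5 comparison share the droughted Col-0 arrays, so low values on those arrays enter both.

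**Figure D4:**
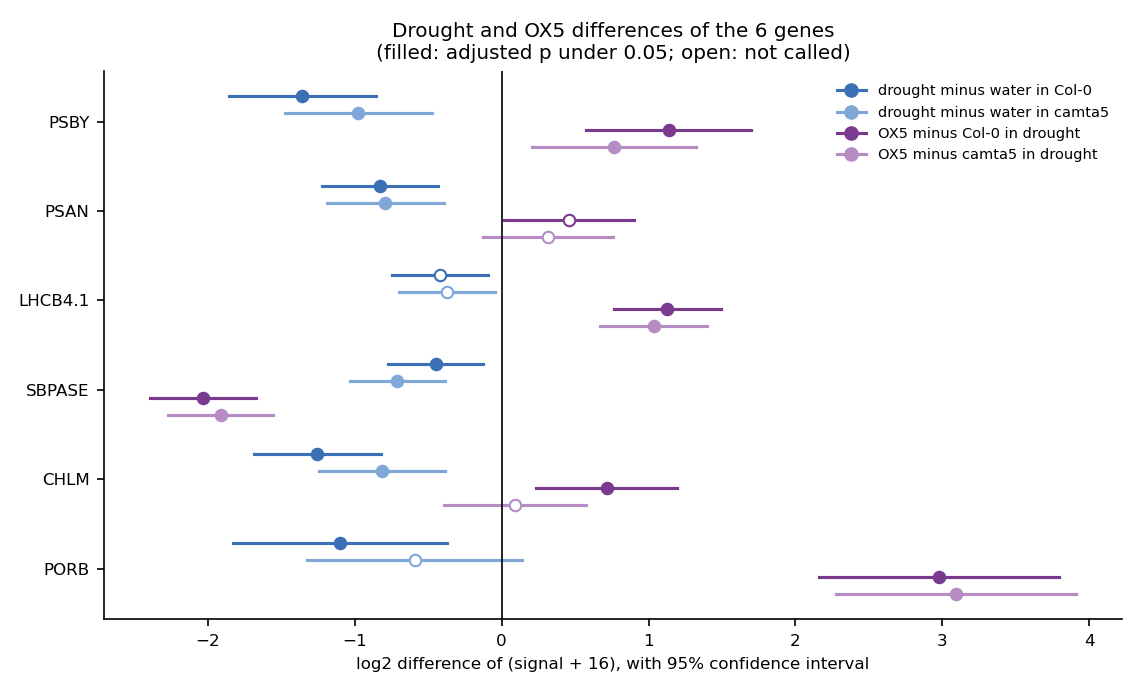
Log2 difference of each gene with its 95% confidence interval (horizontal axis) in the drought comparisons of Col-0 and camta5 and in OX5 against droughted Col-0 and droughted camta5, with filled points for an adjusted p under 0.05 and open points otherwise. The drought values of all 6 genes lie below 0, and the OX5 values lie above 0 for all but SBPASE, near -2, with PORB near 3 and the CHLM interval against camta5 spanning 0.

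The OX5 levels can also be placed in the order of all 5 groups. For PSBY and PSAN, OX5 stood below both watered groups and above both droughted ones by group mean, without overlap with either neighbour in that order. For CHLM it stood below the watered groups, overlapped droughted camta5 and lay above droughted Col-0. For LHCB4.1 and PORB it was the highest group, above the watered plants too, and for SBPASE the lowest. Both watered groups overlapped for every gene but PORB, and both droughted groups for every gene but CHLM.

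Among the other 16 nuclear genes of the lists, 6 were called higher and 2 lower in OX5 against droughted Col-0, with a median of 0.25, where 21.7% and 25% of all probe sets were called higher and lower. In the photosystems, PSB27 was higher by 0.71 ± 0.18 and PSAE-1 (a stromal subunit of photosystem I) by 0.81 ± 0.20, the latter not called under quantile normalization. Isoforms of CP29 differed from each other. LHCB4.1 was higher, LHCB4.2 had a value of 0.66 ± 0.30 that was not called (limma adjusted p = 0.0847), and LHCB4.3 was lower by a log2 difference of -1.90 ± 0.48 (limma adjusted p = 0.00507), at 395 and 468 in OX5 against 794 to 2530 in droughted Col-0. In the Calvin cycle, PRK was lower along with SBPASE, by a log2 difference of -1.0 ± 0.19 (limma adjusted p = 0.00048), at 7368 and 8571 in OX5 against 13195 to 18030 in droughted Col-0. RCA, of the same list, differed by 0.20 ± 0.17 and was not called.

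In the chlorophyll synthesis list, PORB and HEMA2 (a glutamyl-tRNA reductase, 1.13 ± 0.37) had the largest rises. Here HEMB1 (aminolevulinate dehydratase) was also higher, by 0.90 ± 0.17, as were HEME1 and HEME2 (uroporphyrinogen decarboxylases), by 0.87 ± 0.27 and 0.49 ± 0.19. These 3 are named after their values were seen. The HEME2 call was held in 12 of 27 other settings, HEMA2 in 24 and HEME1 in 23. Against droughted camta5, 4 of the 16 were called higher and 2 lower, with a median of 0.27, where 20.2% and 22.5% of all probe sets were called higher and lower. PSAE-1 was higher by 0.75 ± 0.20 and HEME1 by 0.73 ± 0.27, LHCB4.3 lower at -1.63 ± 0.48 and PRK at -0.92 ± 0.19. HEMB1 and HEME2, named after their values were seen, were higher by 0.51 ± 0.17 and 0.50 ± 0.19. The PSAE-1 call was lost under quantile normalization (0.28, adjusted p = 0.2) and without OX5 replicate 1 (adjusted p = 0.0636). The LHCB4.3 call was lost without camta5 drought replicate 1 (-1.14, adjusted p = 0.0525) and without OX5 replicate 1 or 2 (adjusted p = 0.0514 and 0.0805). The calls of HEMB1, HEME1 and HEME2 against camta5 were all lost after centring on the median, and the count of calls among the 16 was 2 without either OX5 array, 3 without camta5 drought replicate 2 and 4 without replicate 3.

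Outside these lists, NOL was lower in OX5, at 517 and 617 against 1028 to 1207 in droughted Col-0, a log2 difference of -0.97 ± 0.18 (limma adjusted p = 0.000459), and -0.97 ± 0.18 against camta5 (limma adjusted p = 0.000537). SAG29 was at 3.27 and 32.0 in OX5, near the floor of the scale, against 4228 to 10007 in droughted Col-0, and was called lower in both comparisons, with a size that depends on the offset. WRKY6, a transcription factor known from senescence, was higher by 2.54 ± 0.43 against Col-0 and 2.02 ± 0.43 against camta5. Of the 13 chloroplast-encoded genes, 5 were called lower and 1 higher against Col-0, with a median of -0.99, where 25% and 21.7% of all probe sets were called lower and higher. The largest falls were psbA (the D1 protein of photosystem II) at -2.04 ± 0.23 and psbC (a core antenna protein) at -2.04 ± 0.17, and the rise was atpB (the beta subunit of the ATP synthase) at 0.53 ± 0.18, which turned to -0.10 under quantile normalization. Against camta5, 9 were called lower and 1 higher, psbB at -2.63 ± 0.61 and psbC at -2.48 ± 0.17, and atpB at 0.62 ± 0.18, which was 0.028 and not called under quantile normalization. Without camta5 drought replicate 1, psbB differed by -1.74 there.

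Across the arrays without OX5 the 6 genes varied together, PORB least closely. With OX5 included, PSBY, PSAN and CHLM still did so, while SBPASE did not follow LHCB4.1 and PORB. Over the 12 Col-0 and camta5 arrays, all 15 pairs of the 6 had positive Pearson correlations of log2 signal, from 0.66 for SBPASE and PORB to 0.96 for PSBY and CHLM. Within groups, as deviations from the group means over all 14 arrays, the coefficients were 0.31 to 0.92, with PSAN and CHLM the highest pair. Over all 14 arrays, OX5 included, PSAN and CHLM stood at 0.95, PSBY and PSAN at 0.93 and LHCB4.1 and PORB at 0.88, while SBPASE stood at -0.55 with LHCB4.1 and -0.66 with PORB. These are descriptions over 14 arrays that share 5 group means, the scaling of each array and, for the negative values, a contrast carried by 2 OX5 arrays.

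Among 8439 other genes with a probe set of their own, those most like each of the 6 over the 14 arrays were found by Pearson's correlation of log2 signal. For PSBY they were AT1G52220 (0.98), AT1G49750 (0.96) and CLPP4 (0.96), a subunit of the chloroplast Clp protease. For PSAN they were AT1G06830 (0.97), AT4G28030 (0.96) and CHLM (0.95), and for CHLM they were AT1G66100 (0.98), AT4G28030 (0.97) and AT1G22690 (0.96), so AT4G28030 stood near both. For SBPASE they were AT3G21390, CaS and AT3G03770, all at 0.99. CaS is the calcium-sensing receptor protein of the thylakoid, and its coefficient with SBPASE was 0.91 over the 12 arrays without OX5 and 0.94 for deviations from group means. For LHCB4.1 they were AT4G25900 (0.97), AT3G52500 (0.96) and AT3G11780 (0.95). For PORB they were the beta-glucosidase gene BGLU44 (0.95), LCR69 (0.94) and AT1G07050 (0.94). Without the OX5 arrays the 3 coefficients of PORB were 0.82 to 0.85 and those of LHCB4.1 0.84 to 0.94, while those of PSBY stayed at 0.96 to 0.98. For deviations from group means they were 0.54 to 0.64 for PORB, 0.58 to 0.83 for LHCB4.1 and 0.91 to 0.95 for PSBY.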

How the data were processed

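Biotin-labelled cRNA, made from 250 ng of leaf RNA, was hybridised to 14 arrays. The authors deposited signal intensities on a linear scale. The submitters' processing notes name MAS5 and Affymetrix Expression Console, with no version. Every array had a mean of 500 once 2% of its values were trimmed at each end. Detection calls, saturation and scan batches were not used here. The small number of arrays limits the precision.

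Probe sets were named through GEO's platform annotation and updated through RefSeq assembly TAIR10.1. Of 22810 probe sets, 13513 named 1 gene, of which 13436 matched, and 503 named several. A further 8794 were unnamed here, the 64 controls included. Coordinates and sequences were not used here. Values were analysed as log2(value + 16), which understates changes of dim genes. Probe sets that exceeded the 40th percentile of the array on 2 or more arrays were fitted with limma 3.58.1 in R 4.3.3, with 5 group means and a trended moderation. Tests were two-sided, and p-values were adjusted by Benjamini-Hochberg over all 15646 probe sets within each of 7 comparisons, with a call at an adjusted p under 0.05. The procedure was run on simulated data with independent noise and few changed probe sets. Those data differ from the OX5 comparisons, where many probe sets were called.

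The 6 genes and the gene lists were chosen with earlier results of these data known. The text names all 6 genes in each comparison, for each list the 2 called genes with the largest rise and the 2 with the largest fall, and the 3 genes most like each of the 6. Where a gene had several probe sets, the brightest on average stood for it. Of 153 entries in 10 pathway lists, the annotation used here gave 39 a probe set of their own. It gave none to the 14 regulators of photosynthesis genes. Entries without one may lie among the probe sets left unnamed or naming several genes, so they are not shown to be absent from the array. Groups shared replicate numbers, but of 16 same-numbered pairs only 2 had deviations correlated above 0.1 (range -0.16 to 0.24), so the numbers were not taken as pairs. Both were pairs of droughted Col-0 and droughted camta5, replicate 1 (0.23) and replicate 2 (0.24), while replicate 3 of these groups was at -0.16. The alternatives were other offsets, filters, normalizations, moderations, array weights, sample sets and thresholds, the replicate number as a block, the other grouping of 1 array, and leaving out each array.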

Additional observations from a re-analysis of the deposited data

How the results depend on the processing

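Of 1164 values that 28 other settings gave for the 42 gene results, 1093 kept their direction and side of the threshold, 39 lost a call, 13 gained one and 19 turned in sign, and none of the 495 values of called results turned. The number of the 6 genes called after drought in Col-0 was 5, against 3 at an adjusted p under 0.01 and 3 to 6 when 1 array was left out (3 without water replicate 1 or 2 or drought replicate 2). In camta5 it was 4, against 1 at that threshold, 2 with quantile normalization and 1 to 4 with 1 array left out (1 without camta5 drought replicate 2). For camta5 against Col-0 in drought it was 0 to 1 with 1 array left out. It was 4 to 6 for OX5 against Col-0 and 3 to 4 against camta5. With the replicate number as a block the counts were 5, 4, 0, 0, 6, 4 and 0 in the 7 comparisons, no call of the 6 genes was lost, and PSAN in OX5 against Col-0 became called (0.47, limma adjusted p = 0.0455). Signs turned only in differences that were not called. CHLM in OX5 against camta5 was -0.055 with median centring and -0.022 to 0.20 with 1 array left out. With array weights PSBY in watered camta5 against Col-0 was 0.012, and the difference of responses was -0.034 for PSAN and -0.025 for LHCB4.1. LHCB4.1 in watered camta5 against Col-0 was -0.012 with the disputed array counted as Col-0, a setting that also ended the call of PORB after drought in Col-0 (-0.92, adjusted p = 0.0575). With 1 array left out, the difference of responses was -0.20 to 0.23 for PSAN and -0.10 to 0.13 for LHCB4.1. With water, camta5 minus Col-0 was -0.084 to 0.093 for PSBY and -0.039 to 0.10 for LHCB4.1. In drought it was -0.092 to 0.33 for PSAN, -0.052 to 0.16 for LHCB4.1 and -0.55 to 0.22 for PORB. Why these values moved was not tested. For the 61 called results of list genes, examined under all settings only after the data were seen, 1505 of 1672 values kept direction and call, 166 lost the call and atpB in OX5 against Col-0 turned to -0.10 with quantile normalization. The 16 other genes gave 5, 4, 8 and 6 calls in the drought and OX5 comparisons, against 1 to 10, 0 to 8, 6 to 9 and 2 to 6 with 1 array left out, 3, 2, 9 and 6 with quantile normalization, and 8, 6, 7 and 3 with median centring. A fit through probe sets that name several genes was not run, since none names any of the 6. The OX5 comparisons have no value without the OX5 arrays.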
